A study of Homo sapiens with 40 samples.

Results

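Coding cassette exons whose length is a multiple of 3 are described here as they occur in transcript models from H9, a widely used human embryonic stem cell line. A cassette exon is an internal exon that some mRNAs of a gene hold and others skip by joining the 2 neighbouring exons directly. The members were found in the deposited set of transcript models. An exon was taken when it was internal in 1 model, when the splice sites on both sides of it were joined in another model of the same gene, and when 1 or more of the models holding it had it wholly within the coding region. It also had to be longer than 30 nt and divisible by 3. This gave 914 exons in 783 genes, out of 3571 cassette exons in the catalogue (25.6%) and out of 2096 coding cassette exons longer than 30 nt (43.6%). The members were chosen by the exon positions, coding regions and lengths of the models, so these values are given as a description.

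A ribosome reads mRNA in triplets, so removing an exon with a length that is a multiple of 3 takes out whole codons' worth of sequence and leaves the frame downstream as it was. Removing any other exon shifts the frame, which usually brings an early stop codon. Exons of the frame-keeping kind are known in neural and stem cell genes as inserts or deletions within otherwise unchanged proteins, for example in clathrin light chains, hnRNPs and PAX6.

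The study separated neural progenitor cells, made from H9 by dual-SMAD inhibition, and control H9 embryonic stem cells into 4 fractions: heavy polyribosome, with 5 or more ribosomes on an mRNA, light polyribosome, with 2 to 4, monosome and cytosol. Of its 40 libraries, 16 were long-read (2 in each of 8 groups) and 24 short-read (3 in each of 8 groups), all of poly A+ RNA from 1 line. The file analysed here is 1 catalogue of 19972 models of 9460 genes, with no count or value per library, and which libraries entered it is not stated. Neural progenitor and embryonic stem cells, or the fractions, are therefore not compared, depth is unknown, and a number of models is not an abundance. Several models of 1 form are different isoforms and not repeated observations.

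The label holds for the coding regions as deposited. Of the 783 genes, 757 are protein-coding in RefSeq's table, 6 are transcribed pseudogenes, 6 are long non-coding RNA genes and 14 had no match by symbol. The exons lay on 24 chromosomes, led by chromosome 1 with 96, chromosome 17 with 70 and chromosome 19 with 69. An exon of CD99, a cell surface glycoprotein gene of the region shared by the sex chromosomes, is listed at the same positions on X and Y and counts as 2. CBWD1, CBWD2 and CBWD5, near-identical copies of 1 gene, each had an exon of 57 nt, and which copy the reads came from is uncertain. Overlapping variants of 1 exon were counted separately, and merging them left 896.

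For most members the forms with and without the exon kept the same start and stop. A member was called skipped in frame when a holding and a skipping model shared both positions and their coding regions differed by exactly the exon's length. This held for 816 of 914 members (89.3%, 95% Wilson interval 87.1 to 91.1%, which covers counting error of exons only). Coding cassette exons of the same minimum length that are not divisible by 3 cannot meet this call, by its definition, and 0 of 1182 did. An exon with several pairs of models got 1 outcome, the first found in a fixed order. The order was in frame, same ends with another length, stop moved, start moved, both moved, no coding region. Only skipping models paired with a model that held the exon in its coding region were compared. Skipping the exons not divisible by 3 went with a moved start in 556 (47.0%) and a moved stop in 370 (31.3%). In 124 (10.5%) no skipping model compared had a coding region. Among members the same outcomes were found for 17 (1.86%), 12 (1.31%) and 35 (3.83%). Because the frame fixes this contrast beforehand, no test is given. For the remaining members, both ends moved in 5, the ends stayed but another difference was present in 3, and 26 had no holding and skipping pair with the exon in the coding region.

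**Figure D1:**
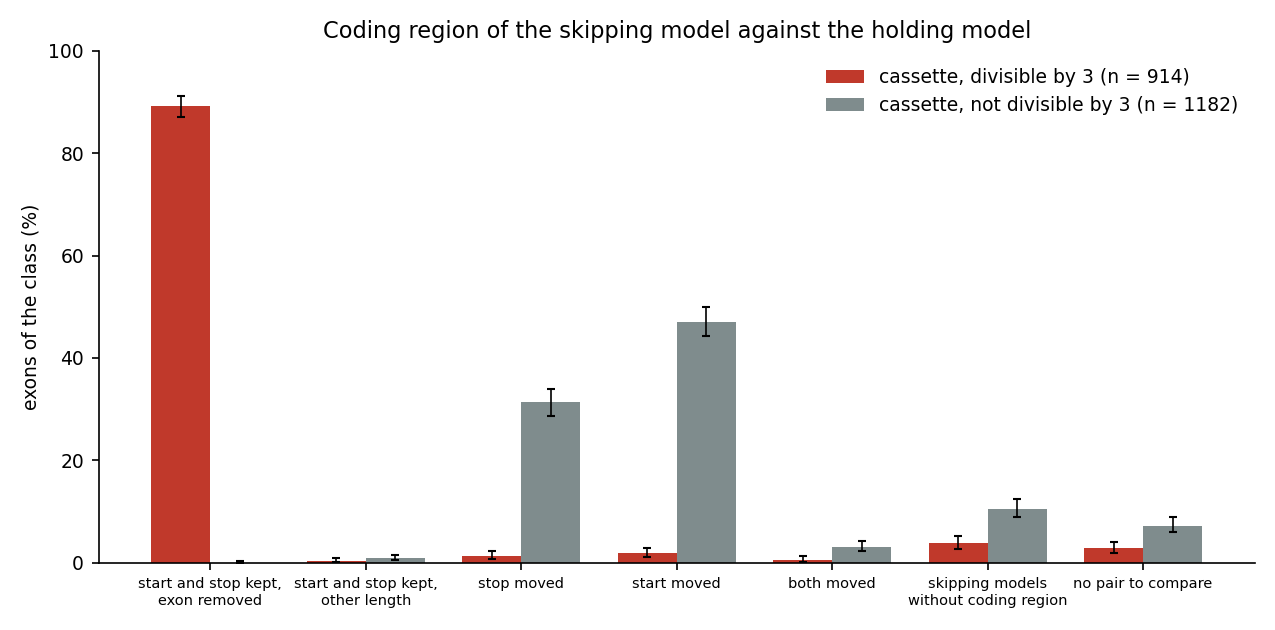
Share of exons (y axis, %) by what happens to the coding region between the model that holds the exon and the model that skips it (x axis), for coding cassette exons divisible by 3 (red, n = 914) and not divisible by 3 (grey, n = 1182). Error bars are 95% Wilson intervals. In the red class 89.3% keep start and stop and differ by exactly the exon, and in the grey class a moved start (47.0%) or stop (31.3%) is most frequent.

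A stricter comparison takes a pair of models with identical introns apart from the skipped exon. Such a pair existed for 869 members, and in 810 of these (93.2%, Wilson interval 91.3 to 94.7%) the coding region was shortened by exactly the exon. Skipped in frame, the exons encoded a median of 34 codons, with 24.75 and 48 at the quartiles and a range from 11 to 470. This was a median of 10.5% of the coding region with the exon (range 1.47 to 81.6%), and in 60 members more than 25% of it. The difference was usually a small part of the coding region.

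The longest exons made up large parts of their coding regions. YTHDF2, which encodes a reader of methylated adenosine in mRNA, had the longest member with 1584 nt (chromosome 1, 28742403 to 28743986). It was held in 1 model with 580 codons and skipped in 1 model that had no coding region. TMEM108, a transmembrane protein gene, had an exon of 1410 nt, with 576 codons in the form that holds it and 106 in the form that skips it. NDUFV3, an accessory subunit gene of respiratory complex I, had 1 of 1095 nt, with 474 codons when held and 109 when skipped. In TACC3, a mitotic spindle gene, an exon of 1080 nt separated coding regions of 839 and 479 codons, and in the histone chaperone gene NASP an exon of 1017 nt separated 789 and 450 codons. In SETMAR, a methyltransferase gene fused to a transposase, an exon of 864 nt separated 672 codons with it and 384 without it. Apart from TMEM108, NDUFV3 and SETMAR, with 2 models of each form, these were seen in 1 model each way.

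At the short end, 7 members measured 33 nt, and just outside the limit the catalogue held 6 coding cassette exons of 30 nt and 27 of 30 nt or less that are divisible by 3. The members of 33 nt were in CADM1, a cell adhesion gene, CPZ, a carboxypeptidase gene, the phosphatase gene CTDSPL, IFI27L1, NUBP1, a factor of iron-sulphur protein assembly, TIA1, a stress granule RNA-binding protein gene, and the troponin gene TNNT1. All 7 were skipped in frame and encoded 11 codons each. TIA1 held its exon in 3 models (387 codons) and skipped it in 1 (376 codons). CPZ and CTDSPL had 1 model of each form, with 653 and 642 codons in CPZ and 277 and 266 in CTDSPL. IFI27L1 held its exon in 10 models and skipped it in 2.

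Members had a median length of 102 nt (quartiles 75 and 144), coding cassette exons not divisible by 3 had 112 nt (79 and 148), and coding internal exons divisible by 3 that no model skips had 111 nt (84 and 147, n = 7154). From 31 to 60 nt lay 15.2% of members (Wilson interval 13.0 to 17.7%), 11.5% of the cassette exons not divisible by 3 and 9.25% of the exons that no model skips. The introns on both sides of a member added up to a median of 4819.5 nt (quartiles 1711.75 and 10775). They came to 5141 nt around cassette exons not divisible by 3 and to 3271 nt around exons that no model skips. In percent of the coding region, members were also nearer to its start than exons that no model skips (median position 42.2% against 48.8%). Cassette exons not divisible by 3 stood at 31.1%. The coding regions themselves differed, with medians of 1029 nt and 8 coding exons for members. For exons that no model skips the medians were 1350 nt and 11 coding exons. Member genes had a median of 4 models against 3 for all genes with at least 2 models of which 1 is coding. No test is given for these differences, since exons of 1 catalogue share genes and models and are not replicates.

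**Figure D2:**
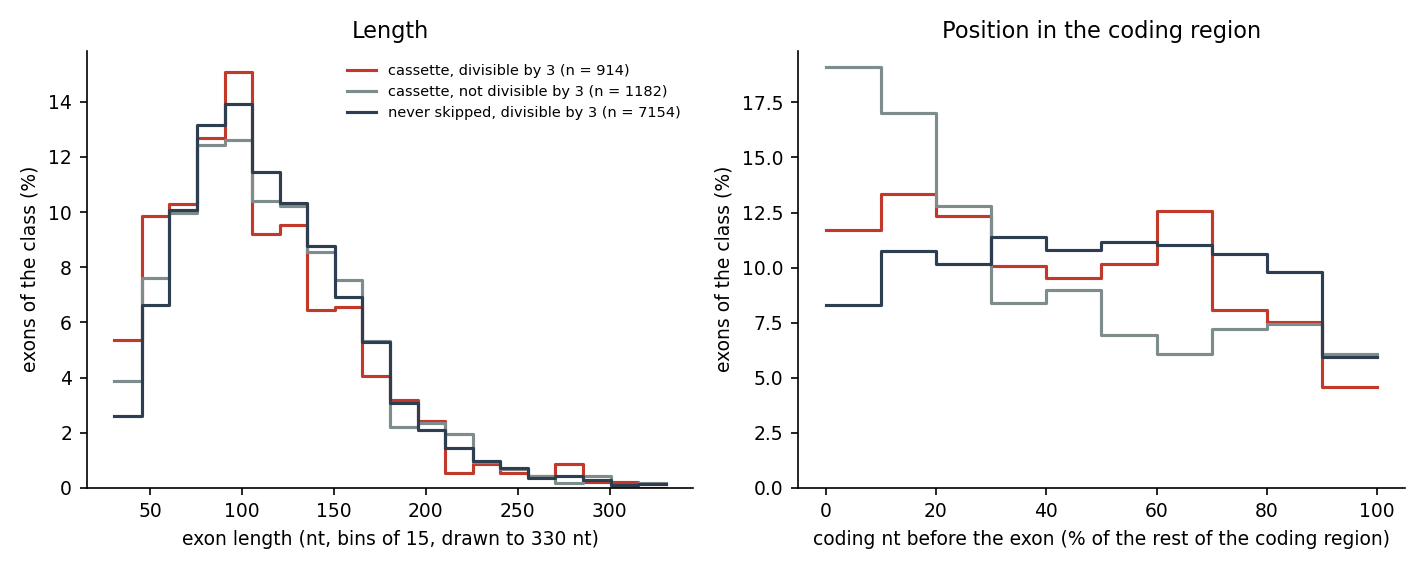
Distribution of exon length (left, x axis in nt, bins of 15 nt) and of position in the coding region (right, x axis in % of the coding sequence outside the exon that precedes it); the y axes give the percentage of each class. Members are red, cassette exons not divisible by 3 grey and exons that no model skips dark; the median lengths are 102, 112 and 111 nt and the median positions 42.2, 31.1 and 48.8%.

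The frame at the exon's edge differed among members. In phase 0 the exon begins between 2 codons and removes whole codons; in phases 1 and 2 it begins inside a codon, and skipping joins the pieces of 2 codons. Phase 0 held for 465 members (50.9%, Wilson interval 47.6 to 54.1%), phase 1 for 297 (32.5%) and phase 2 for 152 (16.6%). Among exons divisible by 3 that no model skips, 59.5% were in phase 0 (58.3 to 60.6%), 26.6% in phase 1 and 13.9% in phase 2. The share skipped in frame was 89.0% in phase 0, 90.2% in phase 1 and 88.2% in phase 2, and these Wilson intervals overlapped. It ranged from 88.4 to 90.9% over 4 equal stretches of the coding region. By length it held for 132 of the 139 members from 31 to 60 nt and 13 of the 17 members over 300 nt (76.5%, Wilson interval 52.7 to 90.4%).

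Holding models outnumbered skipping models for 459 members (50.2%), the numbers were equal for 364 (39.8%), and skipping models outnumbered holding ones for 91 (9.96%). For coding cassette exons not divisible by 3 these shares were 58.0, 36.2 and 5.75%, so an excess of holding models is not particular to members. In 722 members at least 1 form was seen in a single model, and in 293 both were. The exon was held and skipped in at least 2 models each in 192 members, of which 177 (92.2%) were skipped in frame. The skipped form was the single one in 362 members and the held form in 67. Among the 213 members in genes with 2 models this balance is fixed at 1 and 1. Holding models were counted whether or not the exon lay in their coding region, and for 749 members it did in all of them. The model with the longest coding region of the gene held the exon for 863 members and lacked it for 50, which the rule favours, because it asks for the exon in a coding region.

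**Figure D3:**
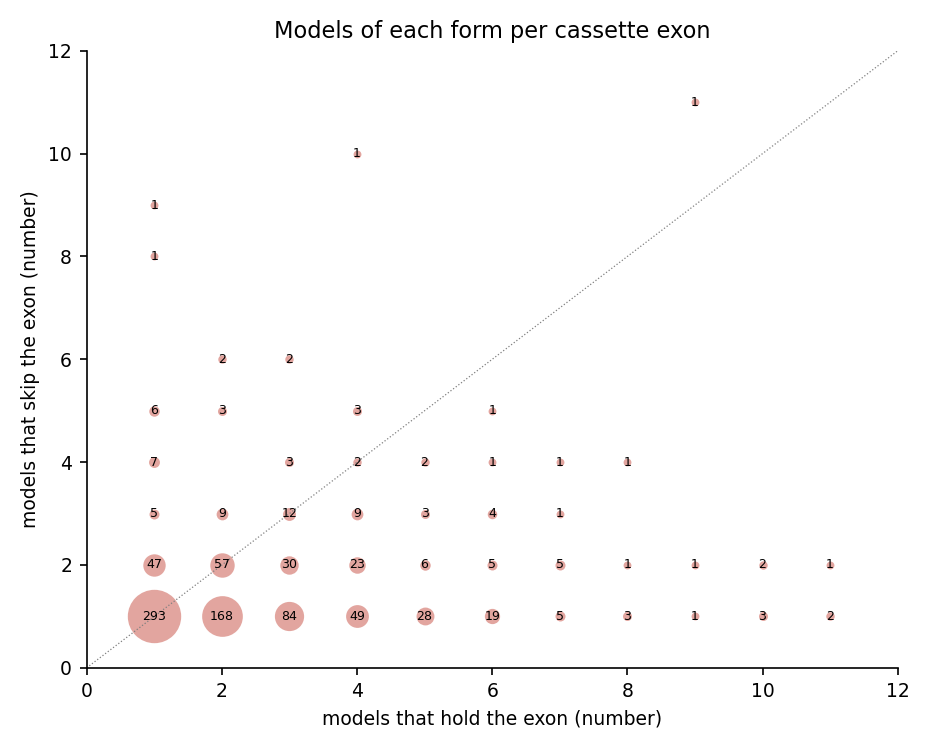
Number of models that hold (x axis) and skip (y axis) each cassette exon divisible by 3. Circle area grows with, and the printed number gives, the members at each point, and the dotted line marks equal numbers; 293 members sit at 1 model of each form, and the DMKN exons stand apart at 9 and 11 and at 4 and 10.

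The exons with the most models of the rarer form lay in genes of varied function. DMKN, the gene of dermokine, a secreted protein of the epidermis, had an exon of 51 nt (chromosome 19, 35509911 to 35509961) held in 9 models and skipped in 11. Of the 9 holding models, 4 had the exon inside the coding region. The DMKN exon of 42 nt (35500378 to 35500419) was held in 4 and skipped in 10. TBC1D7, a subunit gene of the tuberous sclerosis complex that restrains mTORC1, was the most uniform case. Its exon of 81 nt (chromosome 6, 13325094 to 13325174) was held in 6 models and skipped in 5. All 6 holding models had 294 codons and all 5 skipping models 267, so the isoforms of TBC1D7 differed in coding length only by this exon. ZDHHC16, a protein palmitoyltransferase gene, held an exon of 48 nt in 4 models and skipped it in 5, with 378 codons in the longest form and 362 without the exon. PAX6, a transcription factor of neural and eye development, held its exon of 42 nt in 4 models and skipped it in 5. This insert in the paired domain, known as exon 5a, lay in phase 0, 11.1% into the coding region, between introns of 791 nt upstream and 94 nt downstream.

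The other exons of this group did not all leave a coding region behind. AMZ2P1, a transcribed pseudogene, held an exon of 276 nt in 7 models and skipped it in 4 that had no coding region. CENPX, a gene of the centromere and of DNA repair, held an exon of 54 nt in 4 models, of which 1 had a coding region (95 codons), and skipped it in 4 without any.

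In 111 genes there were at least 2 members, counting CD99 on X and Y and genes whose members are overlapping variants of 1 exon. FIP1L1, a cleavage and polyadenylation factor gene on chromosome 4, had members of 45 nt (53379073 to 53379117, held in 3 of 9 models), 69 nt (53391430 to 53391498, held in 5) and 108 nt (53414615 to 53414722, held in 6). Of 8 possible combinations of these exons 7 were found, and the missing 1 had the exon of 45 nt alone. The model with all 3 had 595 codons, a model alike but for the exon of 45 nt 580, and the model without the exon of 69 nt 572. Each loss, of 15 and of 23 codons, equalled the exon's own. MFF, the mitochondrial fission factor gene, had members of 75, 159 and 60 nt on chromosome 2 and 6 of 8 combinations. Its longest form had 317 codons with all 3, 292 without the exon of 75 nt, 264 without that of 159 nt, 244 with the exon of 75 nt alone and 239 with that of 60 nt alone. The models with none of the 3 had 245, 219, 219 and 90 codons, so coding length in MFF also varied apart from these exons. DNM1L, whose product MFF recruits to mitochondria, had a member of 78 nt with 737 codons when held and 711 when skipped, in 1 model each.

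RABEPK, a gene of a Rab9 effector with kelch repeats, had members of 153 and 162 nt next to each other, and the 12 models showed all 4 combinations. Coding regions had 373 codons with both, 322 without the exon of 153 nt, 319 without that of 162 nt and 268 without either. In 4 further models the coding region had 176 codons and did not vary with these exons. PHYHD1, a dioxygenase gene, had members of 63, 129 and 117 nt and 6 of 8 combinations, with 298 codons in its longest form. COMMD4, whose product belongs to a family acting in endosomal sorting, had the most members with 4. Its 7 models comprised 3 that held all 4 exons and 4 that each lacked a different exon, which gives 5 of 16 combinations. TMEM116 and FAM228B had 3 members each, and not all of these could be called skipped in frame. The TMEM116 exon of 84 nt and the FAM228B exon of 69 nt were skipped only in a model without a coding region. For these exons the frame with and without the exon could therefore not be compared. CRIP3, a LIM domain gene, had members of 132, 72 and 129 nt.

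Over all genes, members of 1 gene made 133 pairs of separate exons, beside 18 pairs of overlapping variants. In 130 of the 133 pairs both exons occurred together in at least 1 model, and 52 pairs were neighbours in a model. All 4 combinations (both, either alone, neither) were found in 36 of the 115 pairs spanned by at least 4 models. In the remaining 3 pairs the exons were not found together. These were the exons of 93 and 129 nt of BIN1, an endocytic membrane-bending protein gene, those of 171 and 93 nt of MAP2, a neuronal microtubule-associated protein gene, and those of 132 and 129 nt of CRIP3. BIN1 and MAP2 had 3 models across both exons and CRIP3 had 8, so the forms seen are few.

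**Figure D4:**
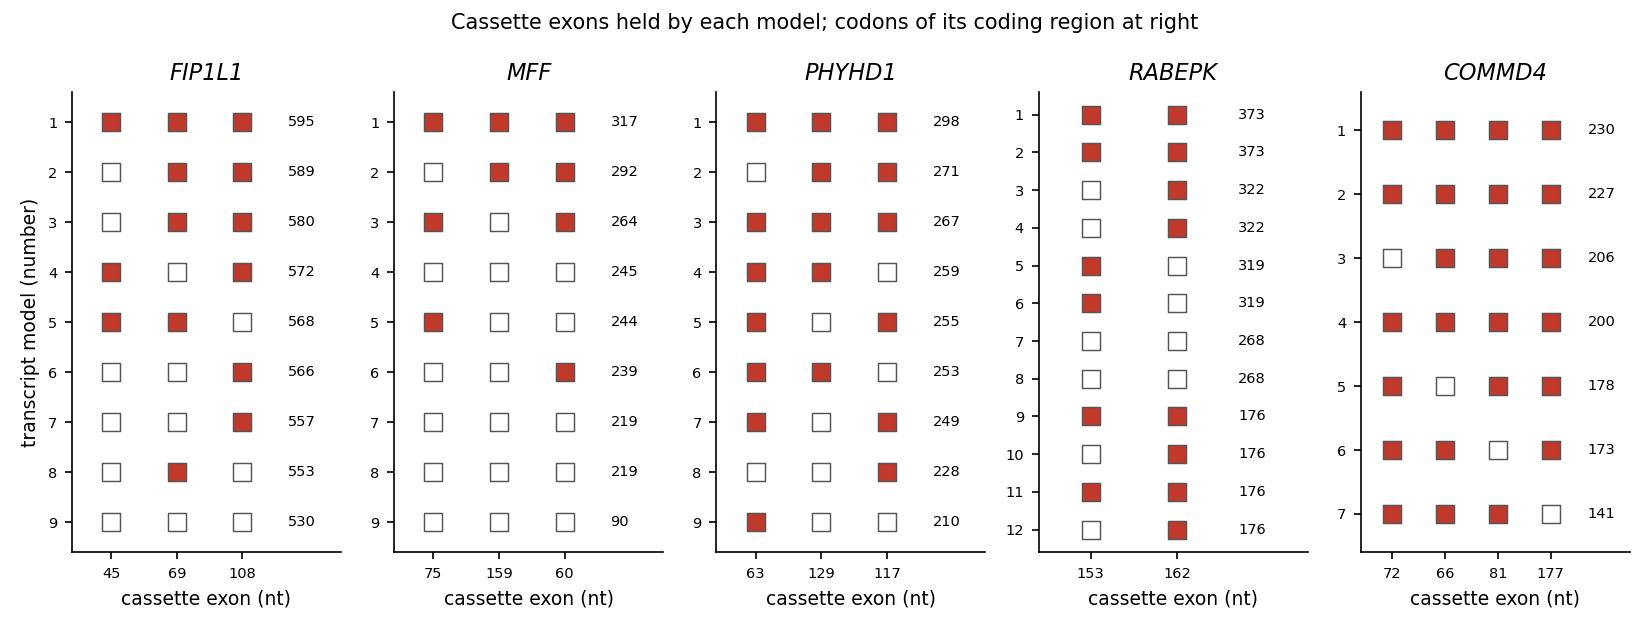
Cassette exons divisible by 3 held (red) or not held (white) by each transcript model of FIP1L1, MFF, PHYHD1, RABEPK and COMMD4. Columns are the exons in transcript order with their length in nt (x axis), rows are models sorted by coding length (y axis), and the number at the right is the codons of the deposited coding region, from 595 to 530 in FIP1L1.

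Gene lists, chosen with earlier results of these data known, differed in how many of their genes held a member. Over all genes with at least 2 models of which 1 is coding, 17.7% had a member (783 of 4433). This share was 10.1% of genes with 2 models, 25.5% of genes with 4 or 5 and 41.1% of genes with 6 to 9. Among hnRNP genes, whose products package and splice nascent RNA, it was 9 of 16 (56.2%, Wilson interval 33.2 to 76.9%). These genes had a median of 4 models, and the part of that number in the share was not tested. All 12 hnRNP members were skipped in frame, beside 816 of all 914 members (89.3%) and 74 of the 77 members in listed genes. The counts skipped in frame given for other lists below are to be read beside these shares. The exons of HNRNPD, of 57 and 147 nt, are those that make its 4 known protein forms. Its 4 models carried both exons, the exon of 57 nt alone, that of 147 nt alone and neither, with 356 codons when both were held. HNRNPA2B1 held an exon of 36 nt, which tells the B1 protein from A2, in 1 model (354 codons) and skipped it in 1 (342 codons). HNRNPAB held an exon of 141 nt in 2 models and skipped it in 2 (333 and 286 codons), and HNRNPR an exon of 114 nt in 4 and 1 (533 and 495 codons). PCBP2, a poly(C)-binding protein gene, held exons of 93, 42 and 39 nt in 3, 7 and 6 of its 8 models.

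Other RNA-processing lists were nearer to the share of all genes. It was 1 of 8 for SR protein genes, 1 of 8 for neural splicing regulators and 4 of 32 for core spliceosome and RBM genes (12.5% each). SRSF7 had an exon of 36 nt held in 4 models and skipped in 1 (239 and 227 codons). PTBP1, a repressor of neural exons, held an exon of 78 nt in 1 model (528 codons) and skipped it in 1 (502 codons); this exon lies between RNA-binding domains and is known to alter the repressor's strength. LUC7L had an exon of 177 nt held in 5 models and skipped in 1, and RBM42, RBM23 and RBM41 had exons of 66, 48 and 72 nt. Among genes of 3' end formation and mRNA decay the share was 7 of 23 (30.4%, Wilson interval 15.6 to 50.9%). CSTF3, a cleavage stimulation factor gene, held an exon of 96 nt in 2 models and skipped it in 3 (136 and 104 codons). Only 1 of these 2 holding models had the exon inside its coding region, which spanned 4 coding exons. CNOT8, a deadenylase gene, held an exon of 162 nt in 4 models and skipped it in 1 (293 and 239 codons). UPF3A, a decay factor gene, was the exception in this list, since start and stop of its forms differed (281 codons with the exon of 99 nt and 276 without it, 2 models each).

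Translation factor and regulator genes had a member in 10 of 37 genes (Wilson interval 15.4 to 43.0%), and all 10 exons were skipped in frame. EEF1D, an elongation factor gene, held an exon of 72 nt in 4 models and skipped it in 2 (282 and 258 codons). EIF2B3, a subunit gene of the exchange factor for eIF2, held an exon of 90 nt in 3 and skipped it in 1 (413 and 383 codons). EIF3K and EIF3L, initiation factor eIF3 subunit genes, held exons of 78 and 81 nt in 2 models each and skipped them in 1.

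Cytoskeletal and membrane traffic genes also held members. Among actin and adhesion genes 4 of 18 had one (22.2%, Wilson interval 9.0 to 45.2%), among microtubule and motor genes 3 of 11 (27.3%, 9.75 to 56.6%) and among vesicle traffic and endocytosis genes 11 of 34 (32.4%, 19.1 to 49.2%). The share over all genes, 17.7%, lay within the intervals of the actin and microtubule lists and below that of the vesicle list, without a test. All 5, 4 and 12 exons of these lists were skipped in frame. ABI2, a gene of the actin-nucleating WAVE complex, held exons of 168 and 87 nt in 4 and 3 models and skipped them in 1 and 2. CTTN, the cortactin gene, had an exon of 111 nt that encodes a repeat of its actin-binding region (551 codons when held, 514 when skipped). BAIAP2, an actin regulator of neuronal spines, held an exon of 99 nt in 1 model and skipped it in 4, and MYL6, a myosin light chain gene, held 1 of 144 nt in 2 and skipped it in 1. DCTN2, a dynactin subunit gene, had an exon of 69 nt, and the MAP2 exon of 93 nt encodes an added microtubule-binding repeat. TPD52L1 held an exon of 39 nt in 3 models and skipped it in 2, AP3S2, an adaptor subunit gene, 1 of 36 nt in 1 and 2, and ARFIP1 1 of 96 nt in 1 and 2.

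Chromatin genes had a member in 11 of 30 (36.7%, Wilson interval 21.9 to 54.5%), and 10 of their 12 exons were skipped in frame. ING4, a reader of histone methylation, held an exon of 72 nt in 11 models and skipped it in 2 (250 and 226 codons). Of the 11 holding models, 6 had the exon inside the coding region. KAT5, a histone acetyltransferase gene, held an exon of 156 nt in 2 and skipped it in 3 (547 and 495 codons), and BCL7B, a chromatin remodelling subunit gene, 1 of 171 nt in 5 and 1. HDAC8, a histone deacetylase gene, had both exceptions, a pair of exons of 78 nt each on the X chromosome. Start and stop were kept in the models compared, but coding regions differed by more than the exon, with 404 codons when held against 278 when skipped for the exon held in 1 model, and 404 against 352 for the exon held in 5. In the stricter comparison, between models with otherwise identical introns, the start moved for both exons.

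Few cell identity genes had at least 2 models, and their counts are too small to set apart from the 17.7% of all genes. Of 8 neural progenitor genes with at least 2 models, PAX6 and HES4, a Notch-responsive repressor, had 1 each, and HES4 held its exon of 96 nt in 1 model (222 codons) and skipped it in 1 (190 codons). Of 6 pluripotency genes TERF1, a telomere protein gene, had 1, an exon of 60 nt (413 and 393 codons) that is absent from its PIN2 form. None of the single mesoderm and endoderm gene and the 2 neural crest and glia genes with at least 2 models had a member. A list of genes picked because stem cell or neural splicing of them is known had a member in 12 of 28 (42.9%), which the choice of the list favours. All 17 of its exons were skipped in frame, and the same genes held 1 coding cassette exon not divisible by 3. Among them, CAMK2G, a calmodulin-dependent kinase gene, had exons of 66, 69 and 114 nt, KDM1A, a histone demethylase gene, 1 of 60 nt (873 and 853 codons), and CLTB, a clathrin light chain gene, 1 of 54 nt (230 and 212 codons).

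**Figure D5:**
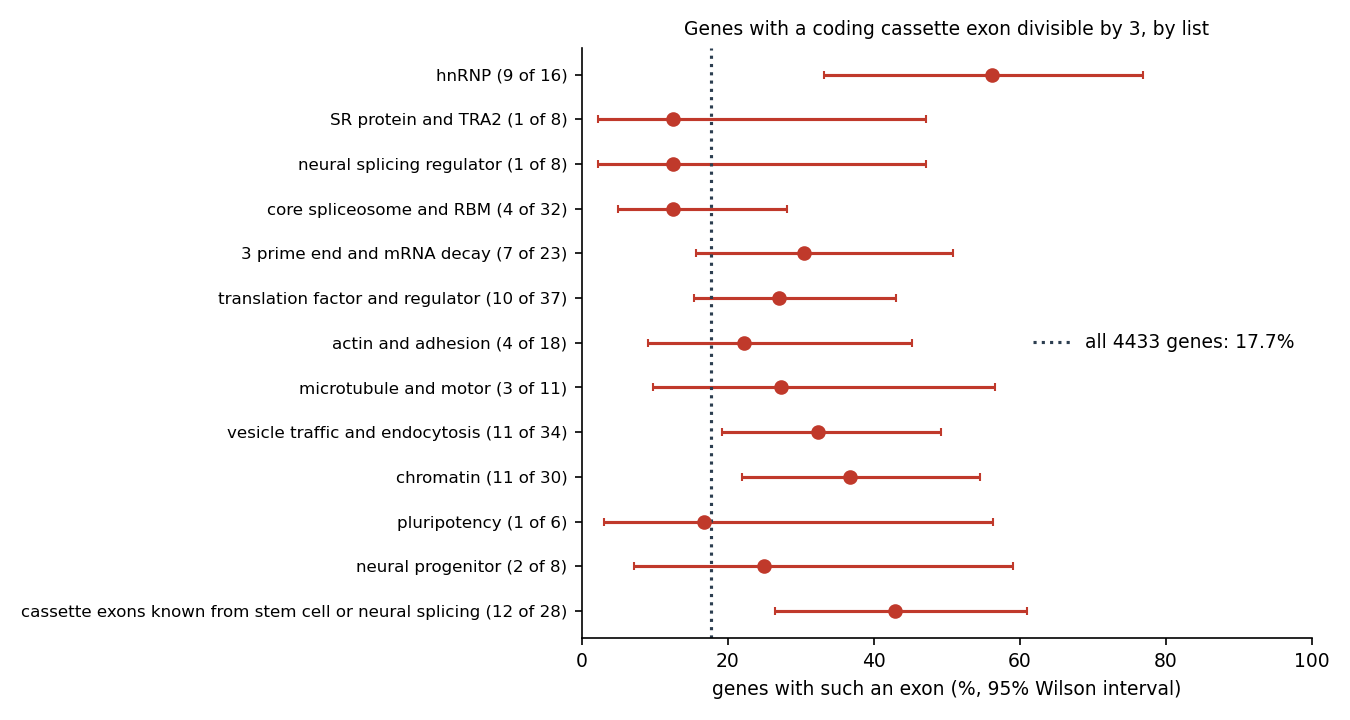
Share of genes with at least 1 coding cassette exon divisible by 3 (x axis, %, with 95% Wilson interval) in each gene list (y axis, genes with a member of genes with at least 2 models of which 1 is coding). The dotted line marks the share over all genes, 17.7%; the hnRNP list lies at 56.2% and SR protein genes at 12.5%, and lists with fewer than 6 such genes are left out.

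In 34 members the start, the stop or both moved between the forms in spite of the length. The coding region without the exon was shorter in 29 of these and longer in 5, and in 17 it was shorter by more than the exon. The genes named in this paragraph were chosen after their values were seen. ZNF195, a zinc finger gene, had 202 codons with its exon of 147 nt and 558 without it. MED15, a Mediator subunit gene, had 695 codons with its exon of 120 nt and 749 without it. The MED15 models compared also differed in other introns, so the change cannot be assigned to this exon. The autophagy gene BECN1 had 389 codons with an exon of 126 nt and 451 without it. EMC10, a gene of the membrane protein insertase of the endoplasmic reticulum, had 255 with an exon of 87 nt and 263 without it. In both the coding region ended at the last base of the exon, and these were the 2 members at which it did. MTFP1, a mitochondrial fission gene, had 129 codons with an exon of 282 nt and 136 without it. In the opposite direction PML, a nuclear body gene, had 830 codons with an exon of 144 nt and 586 without it. DPAGT1, an N-glycosylation enzyme gene, had 409 with an exon of 189 nt and 243 without it.

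Candidates for nonsense-mediated decay, models with over 50 nt between the end of the coding region and the final exon junction, were few on either side. A holding model was such a candidate in 53 members (5.80%, Wilson interval 4.46 to 7.51%) and a skipping model in 12 (1.31%, 0.753 to 2.28%). For coding cassette exons not divisible by 3 these were 103 (8.71%) and 84 (7.11%). The call is a rule on the deposited coding regions and not a measurement of decay. It also needs a coding region, which by the rule every member has in a holding model. A skipping model with a coding region existed for 874 of the 914 members, so the 2 sides are not alike. Members in genes of RefSeq's pseudogene and long non-coding classes were skipped in frame in 3 of 12 cases, against 799 of 885 (90.3%) in protein-coding genes.

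Besides being skipped, 96 members (10.5%) had a variant, another internal exon of the gene sharing exactly 1 edge with them. Among coding cassette exons not divisible by 3, 164 (13.9%) had such a variant. A moved splice site and a retained neighbouring intron were not told apart in these counts. Over all 914 members, 118 (12.9%) also lay inside an intron other than one that joins their flanking splice sites. Of the 783 genes, 185 also held a coding cassette exon that is not divisible by 3.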

How the data were processed

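The authors deposited 1 set of transcript models labelled as long-read, per the file's source column PacBio; the unit used is other than a measured level, namely the positions in nt, counted from 1, of exons and coding regions. Salmon 1.9.0 and STAR 2.7.8a appear in the submitters' processing notes, with no role stated. The sources used here do not give the model builder, coding-region caller, filters, annotation or genome build. Coordinates are printed as deposited; 895 of 897 members with a symbol in RefSeq's table (GRCh38.p14) lay inside that gene's span there. Exon and protein sequences were not analysed here.

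Introns are gaps between exons, per gene, chromosome and strand. Position, phase and flanking introns come from the longest coding region holding the exon. Codons are counted over the deposited coding region, its last codon included. Exons that no model skips were internal exons held by each of at least 2 models spanning them. Scripts (Python 3.11.15, SciPy 1.17.1) were tested on simulated loci. No test between classes was run, and 95% Wilson intervals cover counting error only.

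Members and gene lists (15, with 623 genes) were chosen with earlier results of these data known. Named were the 12 members with the most models of the rarer form, the 6 longest, the 6 shortest, the 6 genes with the most members and up to 4 genes a list; other genes were chosen after their values were seen.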

Additional observations from a re-analysis of the deposited data

How the results depend on the processing

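The number of members was 914 as reported and stayed within 1.5 times of that in 6 alternatives: 749 with the exon inside the coding region of every holding model, 941 with no minimum length, 896 with overlaps merged, 913 without identifiers that join 2 names, 901 without coding regions cut within 2 nt of a model end, and 913 without chromosome Y models, the last chosen after seeing the data. Requiring 2 or more models of each form left 192, a rule that genes with fewer than 4 models cannot meet. The share skipped in frame, 89.3%, moved past its Wilson interval under 3 alternatives, to 92.4% with the exon inside every holding coding region, 92.2% with each form in at least 2 models and 93.2% among the 869 members with a pair of otherwise identical introns, which over all 914 members is 88.6%. It lay between 88.6 and 89.8% in the other 5. The median length was 102 nt in all 4 alternatives run. No paired analysis was possible because the models carry no value per library, and for the same reason no replicate could be left out. Depth is unknown, so an unseen form of a gene is not shown to be absent.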
